A study of Mus musculus with 36 samples.

Results

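Sirt7 encodes a NAD-dependent nuclear deacylase, and in the Sirt7-/- mice of these data the gene was disrupted by a germline deletion that begins at exon 4. The 10 genes described here are neighbours of Sirt7 on mouse chromosome 11: Bahcc1, P4hb, Arhgdia, Anapc11 and Pcyt2 on the side of the lower coordinates, and Mafg, Pycr1, Rfng, Fasn and Csnk1d on the other. They were chosen by their normalized counts in Sirt7-/- against wild-type (WT) libraries, so the differences between these genotypes are given below as a description. Where the number of the 10 past a test's threshold is given for these differences, it belongs to that description and supports nothing. The 10 genes are 10 of the 46 genes with a start within 0.5 Mb of Sirt7 that were tested in sorted cells and of the 34 tested in cultured cells, out of 17649 and 13651 genes tested in all. All 10 had at least 10 normalized counts in at least 2 libraries of each table.

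RNA was sequenced from 24 libraries in 3 tables, each with 4 groups of 2 libraries. The first table held pro-B cells (B220+IgM-CD43+) and pre-B cells (B220+IgM-CD43-) sorted from the bone marrow of 2 WT and 2 Sirt7-/- adult mice on the 129Sv background, with 1 pro-B and 1 pre-B library per mouse. The second held cultured pro-B cells from bone marrow: WT cells given an empty retroviral vector (EV), and Sirt7-/- cells given EV, wild-type Pax5 (Pax5WT) or Pax5K198R. In Pax5K198R a lysine of Pax5 that can be acetylated is replaced by arginine, and in Pax5K198Q by glutamine. The remaining table held Pax5-/- pro-B cells on the C57BL/6 background, grown from fetal liver progenitors, with EV, Pax5WT, Pax5K198Q or Pax5K198R, and these cells carry no labelled change at Sirt7. All cells of the cultured tables were grown on OP9 stromal feeder cells with IL-7, SCF and FLT3-L. The deletion spans exons 4 to 10 in these 129Sv mice. A line on C57BL/6 that lacks exons 4 to 9 was also kept, and the study names the 129Sv line as the one it calls Sirt7-/-. Every cell of a Sirt7-/- mouse carries the deletion, so the absence of the SIRT7 protein and the altered DNA at the locus cannot be told apart in these groups. Pax5 binding was measured by ChIP–seq in Pax5-/- cells with each of the 3 forms, with 2 peak lists per form. In list 2 of Pax5K198R the names of the peaks carry another replicate number than the label does, and the list was used as labelled.

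Pro-B cells rearrange the immunoglobulin heavy chain locus and pre-B cells the light chain loci, and both depend on the transcription factor Pax5. The genes around Sirt7 serve various functions. Pcyt2 makes CDP-ethanolamine for phosphatidylethanolamine synthesis, Fasn is the fatty acid synthase and Pycr1 catalyses the last step of mitochondrial proline synthesis. P4hb is the protein disulfide isomerase of the endoplasmic reticulum, Arhgdia is a GDP dissociation inhibitor that holds small GTPases inactive in the cytosol, Mafg is a small Maf transcription factor, Rfng is a Fringe glycosyltransferase that modifies Notch receptors, Anapc11 is the RING subunit of the anaphase-promoting complex, Csnk1d is a casein kinase and Bahcc1 is a chromatin protein with a BAH domain.

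The sorted libraries held between 50004827 and 55536608 reads. Summed normalized counts were between 27814214 and 30160880 per library in the table of cultured WT and Sirt7-/- cells and between 28865461 and 30520853 in that of Pax5-/- cells. In 4 of the 8 sorted samples the label for the cell type names the other stage than the title does, and the stage was taken from the title. Transcripts of Dntt, the terminal transferase of pro-B cells, were at 30149 and 30750 normalized counts in the Sirt7-/- pro-B libraries and at 19432 and 26828 in the WT ones. In the pre-B libraries they were at 423 and 3838 in Sirt7-/- cells and at 131 and 157 in WT cells, so that all pro-B libraries stood above all pre-B libraries, as titled. All 10 markers of the B lineage had at least 10 normalized counts in every sorted library, led by Cd79a.

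Libraries of the second Sirt7-/- mouse stood apart in markers of other cells. The 7 erythroid markers summed to 72146 normalized counts in its pre-B library and 47907 in its pro-B library, against 6178 to 16963 in the other 6 sorted libraries, and Hba-a1 alone was at 22303 and 19328. The 6 NK cell markers summed to 756 and 1220 in these libraries against 157 to 659 in the others. The 9 myeloid markers summed to 9731 in its pro-B library against 25093 to 34308 in the other pro-B libraries. In pre-B cells these markers were lower in both Sirt7-/- libraries, at 11644.5 and 10797 against 15451 and 15097 in WT ones. In sorted pro-B cells the 9 stromal markers summed to 977 and 775 in Sirt7-/- and to 1738 and 1563 in WT libraries. The NK cell markers of cultured cells with EV summed to 224 and 124 in Sirt7-/- and to 116 and 61.0 in WT libraries. The 9 stromal markers summed to between 7343 and 29284 in the cultured WT and Sirt7-/- libraries, with 10012 and 8808 in WT cells with EV and 7343 and 11592 in Sirt7-/- cells with EV. These are bulk samples, in which fewer cells of a type and less RNA per cell cannot be told apart. The part of other cells in the differences below was not tested, and values are given for each library.

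Sirt7 itself was low in every Sirt7-/- library. In WT pro-B cells it was at 2692 and 2533 normalized counts and in Sirt7-/- pro-B cells at 363 and 366. In pre-B cells it was at 5613 and 5219 in WT and at 1066 and 821 in Sirt7-/- libraries. In cultured cells with EV it was at 1324 and 905 in WT and at 336 and 387 in Sirt7-/- libraries. The genotypes did not overlap in any setting, and the remaining counts cannot be placed on exons because the table sums reads over a gene. Exons 1 to 3, which the deletion leaves in place, hold 22.1% of the exonic bases of the principal transcript.

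Pcyt2, transcribed towards lower coordinates from a start 435 bases beyond the last base of Sirt7, had the largest log2 difference of all genes tested within 0.5 Mb, Sirt7 itself aside, in pro-B and in cultured cells. In pre-B cells it had the fifth of 46 by size, after Gm11772, Cd7, Pde6g and Gm3807, of which Gm11772 and Pde6g were at 11.6 normalized counts or less in every pre-B library. Sirt7 is also transcribed towards lower coordinates, so that its deleted end faces the start of Pcyt2. By GENCODE M21 on GRCm38 (mm10), Pcyt2 lies at chr11:120610087-120617936 and the stretch from exon 4 to exon 10 of Sirt7 at chr11:120618372-120622211, which is 3840 bases. The bases just before Pcyt2, which carry the edge of the Pax5 peaks described below, are shown here from the GRCm38.p6 genome, 5′ to 3′ on the strand of the gene (chr11:120617937-120618076, minus strand), with GC boxes (GGGCGG) and CCAAT boxes (CCAAT) of either strand in capitals.
Pcyt2, 140 bases before its start: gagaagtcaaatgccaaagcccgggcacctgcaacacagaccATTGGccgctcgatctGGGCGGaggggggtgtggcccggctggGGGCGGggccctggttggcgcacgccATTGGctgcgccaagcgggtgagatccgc
The stretch held 2 GC boxes and 2 CCAAT boxes. Of the 32851 promoter windows of 250 bases in RefSeq (GRCm38.p6), 32.7% held a GC box and 33.8% a CCAAT box, so that both are common.

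Pcyt2 transcripts were at 569 and 634 normalized counts in the Sirt7-/- pro-B libraries and at 2665 and 2582 in the WT pro-B libraries. They were at 1003 and 628 in Sirt7-/- and at 2395 and 2440 in WT pre-B cells, and at 567 and 424 in Sirt7-/- and at 3378 and 2839 in WT cultured cells with EV. All 6 Sirt7-/- libraries were below all 6 WT libraries of their table. By the ratio of the group means Pcyt2 was 4.36-fold lower in pro-B, 2.96-fold lower in pre-B and 6.28-fold lower in cultured cells. On the log2 scale after adding 1 normalized count, the differences were -2.13 ± 0.21 (SE, n = 2 and 2), -1.61 ± 0.21 and -2.66 ± 0.23, in the same order. Each SE here and below comes from a limma fit of all groups of a table, so that pro-B and pre-B cells share the same SE. The library of the second Sirt7-/- mouse, with its erythroid transcripts, and that of the first had like levels of Pcyt2 in pro-B cells, and in pre-B cells the first was the higher one.

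The plot of normalized counts by library shows Sirt7 and the 10 genes in all groups.

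**Figure D1:**
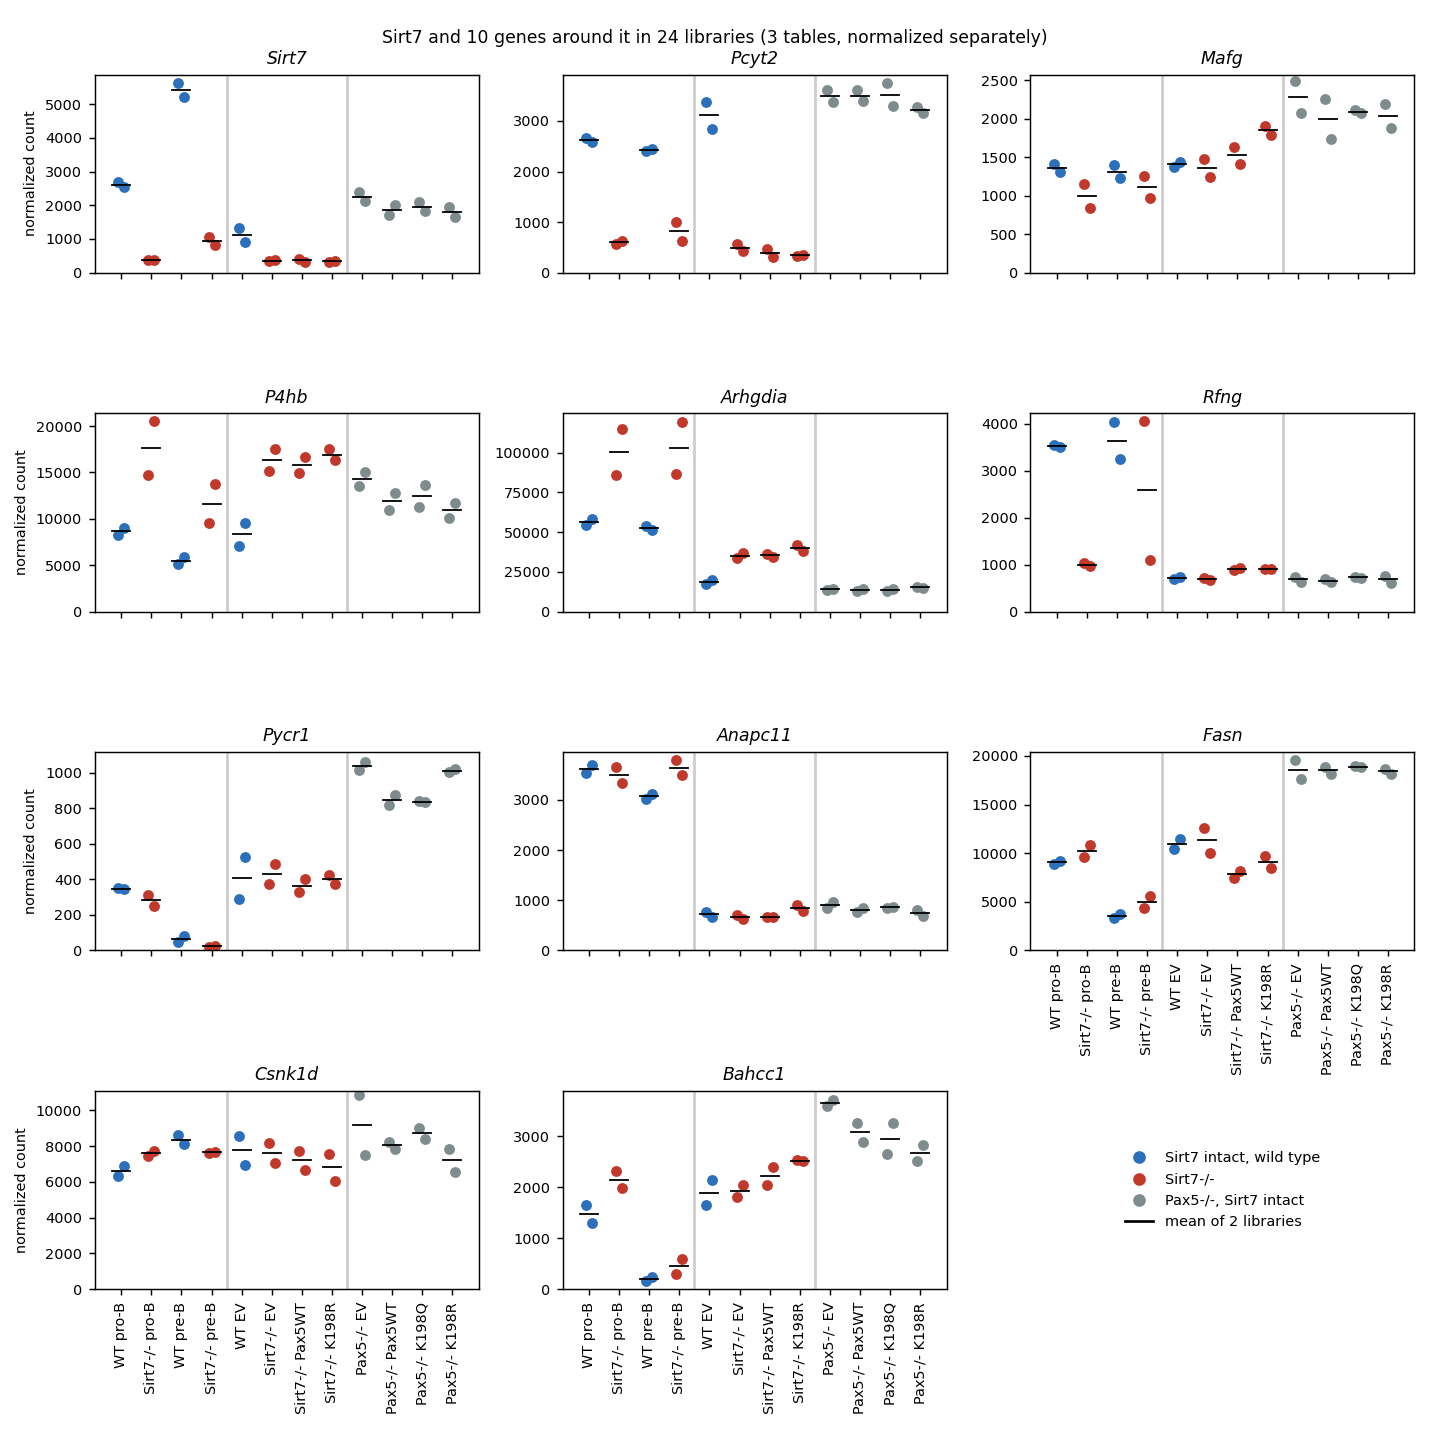
Normalized counts (vertical axes, from 0) of Sirt7 and its 10 neighbours in 12 groups, with a point for each of the 2 libraries and a bar at their mean. The vertical grey lines part the sorted cells, the cultured WT and Sirt7-/- cells and the Pax5-/- cells, whose tables were normalized separately. Pcyt2 is low in all Sirt7-/- groups, P4hb and Arhgdia are high in them, and Rfng is low in Sirt7-/- pro-B cells and in 1 of the 2 Sirt7-/- pre-B libraries.

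P4hb and Arhgdia, which lie next to each other 52 kb and 43.6 kb from the Sirt7 start, had more transcripts in Sirt7-/- cells in each setting. Distances are taken between the first bases of the genes. P4hb lies at chr11:120560298-120573253 and Arhgdia at chr11:120578104-120581624, both transcribed towards lower coordinates. The 250 bases before their starts (RefSeq, GRCm38.p6, chr11:120573254-120573503 and chr11:120581625-120581874, minus strand) are shown as the promoters of the pair that differed in this direction, with GC boxes, CCAAT boxes and ETS cores (CCGGAA) of either strand in capitals.
P4hb, 250 bases before its start: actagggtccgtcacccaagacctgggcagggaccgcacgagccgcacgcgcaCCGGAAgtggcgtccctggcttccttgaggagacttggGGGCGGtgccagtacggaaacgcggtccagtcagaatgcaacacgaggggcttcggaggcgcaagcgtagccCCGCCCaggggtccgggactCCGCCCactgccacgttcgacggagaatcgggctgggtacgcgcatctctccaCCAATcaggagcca
Arhgdia, 250 bases before its first listed start: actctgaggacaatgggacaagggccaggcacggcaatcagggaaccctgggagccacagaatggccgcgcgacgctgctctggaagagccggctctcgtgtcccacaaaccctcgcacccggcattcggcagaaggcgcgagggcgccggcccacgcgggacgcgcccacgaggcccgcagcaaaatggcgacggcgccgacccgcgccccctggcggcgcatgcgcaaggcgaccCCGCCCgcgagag
The P4hb promoter held 3 GC boxes, 1 CCAAT box and 1 ETS core, and the stretch before the first listed Arhgdia start held 1 GC box. Before the other listed Arhgdia start (chr11:120581248-120581497), which is not printed, there were 8 GC boxes. An ETS core was in 12.0% of RefSeq promoters of this length.

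P4hb was at 14736 and 20594 normalized counts in Sirt7-/- and at 8271 and 9014 in WT pro-B cells. It was at 9528 and 13728 in Sirt7-/- and at 5090 and 5841 in WT pre-B cells. In cultured cells with EV it was at 15206 and 17549 in Sirt7-/- and at 7104 and 9572 in WT libraries. The genotypes did not overlap in any of the 3 settings, and the ratios of the means were 2.04, 2.13 and 1.96. The log2 differences were 1.01 ± 0.21 (SE), 1.07 ± 0.21 and 0.99 ± 0.15. The library of the second Sirt7-/- mouse was the higher one at both stages.

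Arhgdia was the most abundant of the 10 genes per kb of exon in all 12 groups. It was at 85816 and 114613 normalized counts in Sirt7-/- and at 54242 and 58100 in WT pro-B cells. It was at 86284 and 119291 in Sirt7-/- and at 53595 and 51306 in WT pre-B cells. In cultured cells it was at 33664 and 36740 in Sirt7-/- and at 17557 and 19548 in WT libraries with EV. The genotypes again did not overlap, with ratios of the means of 1.78, 1.96 and 1.90 and log2 differences of 0.82 ± 0.18 (SE), 0.95 ± 0.18 and 0.92 ± 0.11. The library of the second Sirt7-/- mouse was the higher one at both stages here too.

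A gene outside the 10, Mcrip1, which is listed under its older name Fam195b in the table of sorted cells, starts 75.5 kb from Sirt7, and no other tested gene starts between it and P4hb. Mcrip1, which encodes an ERK-regulated protein that binds the corepressor CtBP, was at 6833 and 8151 normalized counts in Sirt7-/- and at 4153 and 4101 in WT pro-B cells. It was at 9214 and 9705 in Sirt7-/- and at 5800 and 4985 in WT pre-B cells. In cultured cells with EV it was at 2733 and 2759 in Sirt7-/- and at 1324 and 1187 in WT libraries. Its log2 differences were 0.85, 0.81 and 1.13, so that Mcrip1, P4hb and Arhgdia were neighbours among the tested genes, with higher values in all 6 Sirt7-/- libraries of these groups. Next to the start of Arhgdia, and transcribed the other way, Gm3807, an unclassified transcript of few counts that was tested in sorted cells only, was at 163 and 132 normalized counts in Sirt7-/- and at 54.4 and 20.8 in WT pre-B cells. In pro-B cells it was at 57.8 and 101 in Sirt7-/- and at 62.6 and 15.9 in WT libraries, which overlapped, and its log2 differences were 2.09 in pre-B and 1.24 in pro-B cells.

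Alyref, an mRNA export adaptor, and Anapc11 share a start region about 26.8 kb from Sirt7, between Gm3807 and Pcyt2. Alyref was at 6770 and 7213 normalized counts in Sirt7-/- and at 6366 and 7012 in WT pro-B cells, and its log2 differences were 0.06, 0.20 and -0.09 in the 3 settings. Anapc11 was at 3663 and 3331 in Sirt7-/- and at 3531 and 3692 in WT pro-B cells, at 3791 and 3492 against 3017 and 3124 in pre-B cells, and at 715 and 634 against 759 and 674 in cultured cells. The genotypes overlapped for Anapc11 in pro-B and in cultured cells. Npb, a short gene between Anapc11 and Pcyt2, was at 11.1 to 36.5 normalized counts in pro-B cells, and its 2 genotypes overlapped.

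On the other side of Sirt7, Mafg starts 8.4 kb away and shares 124 bases of the annotation with Sirt7. Mafg was at 1146 and 845 normalized counts in Sirt7-/- and at 1405 and 1305 in WT pro-B cells. It was at 1258 and 970 in Sirt7-/- and at 1394 and 1229 in WT pre-B cells, and at 1476 and 1237 against 1378 and 1433 in cultured cells. The genotypes overlapped in pre-B and in cultured cells, and the log2 differences were -0.46 ± 0.19 (SE), -0.24 ± 0.19 and -0.06 ± 0.13. How reads of the shared bases were divided between Mafg and Sirt7 is not given in the sources used here.

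Pycr1, 18.5 kb from Sirt7, had the lowest level of the 10 genes per kb of exon in all sorted groups. It was at 21.3 and 23.2 normalized counts in Sirt7-/- and at 46.0 and 82.0 in WT pre-B cells. In pro-B cells it was at 314 and 251 against 351 and 346, and in cultured cells at 372 and 485 against 289 and 526. The groups did not overlap in sorted cells and overlapped in cultured cells, with log2 differences of -0.31 ± 0.32 (SE), -1.43 ± 0.32 and 0.12 ± 0.29.

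Rfng lies at chr11:120780746-120784207, 159 kb from the Sirt7 start, and differed widely between the 2 Sirt7-/- pre-B libraries. In pro-B cells Rfng was at 1035 and 968 normalized counts in Sirt7-/- and at 3555 and 3501 in WT libraries. In pre-B cells the first Sirt7-/- library was at 4052 and the second at 1109, while the WT libraries were at 4036 and 3255. The first was thus as high as the WT libraries and the second as low as the Sirt7-/- pro-B libraries, although the first mouse also gave the pro-B library at 1035. In cultured cells with EV, Rfng was at 725 and 669 in Sirt7-/- and at 690 and 733 in WT libraries, which overlapped. The log2 differences were -1.82 ± 0.52 (SE), -0.77 ± 0.52 and -0.03 ± 0.12, and without the second Sirt7-/- pre-B library the one in pre-B cells was 0.16. The SE of 0.52 given for pro-B cells includes the spread of the pre-B libraries. Gps1, a subunit of the COP9 signalosome that starts 159.03 kb from Sirt7 and is transcribed the other way, was at 3219 and 3180 in Sirt7-/- and at 2972 and 2821 in WT pro-B cells. Between the starts of Rfng and Gps1 lie 64 bases. The 250 bases before the RefSeq start of Rfng (GRCm38.p6, chr11:120784205-120784454, minus strand), of which 183 lie within Gps1 and 3 within Rfng as annotated by GENCODE, are shown because they cover both starts, with GC boxes and ETS cores of either strand in capitals.
Rfng, 250 bases before its start: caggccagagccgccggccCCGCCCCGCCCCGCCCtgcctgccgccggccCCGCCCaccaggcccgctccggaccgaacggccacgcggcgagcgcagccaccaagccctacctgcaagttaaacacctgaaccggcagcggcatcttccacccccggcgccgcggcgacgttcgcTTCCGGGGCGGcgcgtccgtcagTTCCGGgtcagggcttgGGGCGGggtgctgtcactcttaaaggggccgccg
It held 6 GC boxes and 2 ETS cores.

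Fasn, Csnk1d and Bahcc1 lie farther out, at 199.3, 366.1 and 392.3 kb. Fasn was at 9646 and 10858 normalized counts in Sirt7-/- and at 8913 and 9234 in WT pro-B cells, at 4368 and 5611 against 3353 and 3732 in pre-B cells, and at 12583 and 10044 against 10474 and 11469 in cultured cells. Bahcc1 was at 2321 and 1978 against 1649 and 1307 in pro-B cells, at 303 and 601 against 157 and 244 in pre-B cells, and at 1816 and 2040 against 1647 and 2144 in cultured cells. Both were thus higher in all Sirt7-/- libraries of the sorted cells and overlapped between the genotypes in cultured cells. The second Sirt7-/- pre-B library, the higher one for both genes, also had the most Dntt of the pre-B libraries. The sums of the 7 pro-B markers overlapped in pre-B cells, at 23051 and 35108 in Sirt7-/- and 22692 and 31773 in WT libraries. Whether pro-B transcripts had a part in these differences was not tested. Csnk1d was at 7433 and 7749 against 6342 and 6865 in pro-B cells, at 7620 and 7669 against 8604 and 8113 in pre-B cells, and at 8145 and 7053 against 8564 and 6949 in cultured cells. Its sign in pro-B cells was the opposite of that in pre-B cells.

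Over the 10 genes, the Sirt7-/- and WT libraries did not overlap for 9 in pro-B cells (5 higher and 4 lower in Sirt7-/-), against 39.3% of all genes tested. They did not overlap for 8 in pre-B cells (5 higher, 3 lower), against 41.4%, and for 3 in cultured cells (2 higher, 1 lower), against 34.6%. At a Benjamini-Hochberg adjusted p under 0.05 in limma, 1 of the 10 was past the threshold in pro-B cells (Pcyt2), against 0.0623% of all genes tested, and 0 with any 1 of the 4 libraries left out. With edgeR it was 1 of the 10 (0.0567% of all genes), with DESeq2 4 (0.697%) and with the replicate number as a block in limma 0 (0.0850%). At an unadjusted p under 0.05 there were 6 of the 10 in pro-B cells, against 5.94% of all genes, and 7 in pre-B cells, against 13.6%. In pre-B cells the count past the threshold was 0 in limma, against 0.0850%. It rose when the first Sirt7-/- library was left out, as did the count over all genes. There it was 0 with edgeR (0.0283% of all genes), 6 with DESeq2 (4.08%) and 0 with the block (0.0397%). In cultured cells it was 3 (Pcyt2, P4hb and Arhgdia), against 0.557%. It was lower with any 1 library left out, as was the count over all genes. With the block these 3 genes were again past the threshold, against 2.11% of all genes, and 3 of the 10 were at an unadjusted p under 0.05 without it, against 9.68%. Since these contrasts chose the genes, the counts are given only as a description. Their median log2 difference was 0.06 in pro-B, 0.06 in pre-B and 0.00 in cultured cells, with 5 genes above 0 and 5 below in each.

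Across all genes tested in both tables, 361 of 12228 (2.95%) had libraries of the genotypes that did not overlap and moved in the same direction in all 3 settings. With a log2 difference of at least 0.5 in each, a size chosen after the values were seen, 59 genes were left (0.482%), of which 10 (16.9%) are on chromosome 11, where 8.26% of the 12228 genes lie. Of the 59, 5 (8.47%) start within 0.1 Mb of Sirt7, where 13 of the 12228 genes (0.106%) start. They are Sirt7 and Mcrip1 and, among the genes chosen by these contrasts, Pcyt2, P4hb and Arhgdia. All 5 are also among the 10 on chromosome 11. Both shares thus include the deleted gene and genes chosen by these contrasts, and they are a description only. The pro-B and pre-B libraries of a genotype come from the same mice, so that these settings are not independent of each other.

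The other genes tested within 0.5 Mb, without the 10, also had differences in both directions. In pro-B cells 25 of these 36 genes were above 0 with a median of 0.10, beside 0.00 over all genes tested. In pre-B cells 26 of 36 were above 0 with a median of 0.21, beside 0.02, and in cultured cells 13 of 24 with a median of 0.02, beside -0.01. With limma 0 of the 36 were past the threshold in pro-B and 0 in pre-B cells, with 1 and 8 at an unadjusted p under 0.05, 0 and 0 past it with edgeR and 1 and 2 with DESeq2. In cultured cells 1 of the 24 was past it, Mcrip1. An absolute log2 difference of at least 0.5 was found for 27.8%, 36.1% and 8.33% of these genes in pro-B, pre-B and cultured cells, and for 20.9%, 27.0% and 16.6% of all genes tested.

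With the 10 genes included, the share that reached that size did not fall steadily with distance in any setting. The 10 were chosen by these differences, so that the shares by distance are a description only. In pro-B cells it was 6 of the 15 genes within 0.1 Mb, 4 of the 17 from 0.1 to 0.25 Mb and 5 of the 14 from 0.25 to 0.5 Mb. In pre-B cells it was 8 of 15, 4 of 17 and 7 of 14. In cultured cells it was 4 of 13, 0 of 15 and 1 of 6. The last of these was Slc16a3, a lactate transporter, at 58.3 and 17.3 against 18.5 and 1.53 normalized counts.

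The plot of log2 differences by distance shows Pcyt2 lowest next to Sirt7 and the run from Mcrip1 to Arhgdia above 0.

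**Figure D2:**
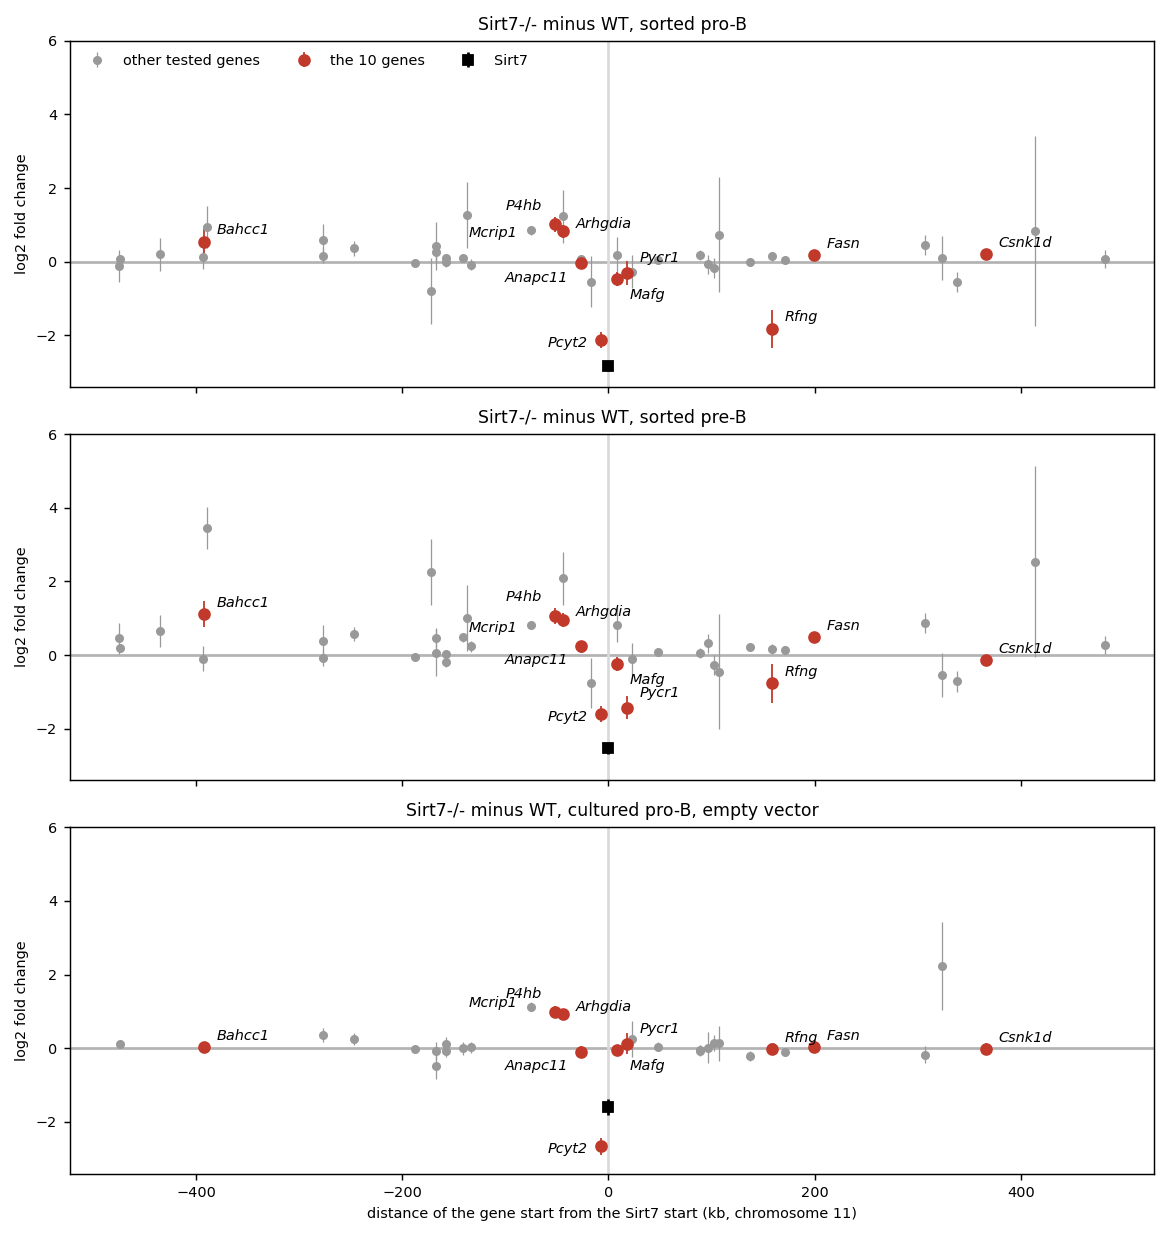
Log2 fold change of Sirt7-/- against WT cells (vertical axis) by distance of a gene's start from the Sirt7 start in kb (horizontal axis), for the genes tested within 0.5 Mb in pro-B, pre-B and cultured cells with EV. Red points are the 10 genes, grey points the others, the black square is Sirt7, and bars are standard errors from limma. P4hb, Arhgdia and Mcrip1 lie between 0.81 and 1.13 in all 3 panels and Pcyt2 between -2.66 and -1.61.

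Around the edge of the chosen stretch, Bahcc1 at 392.3 kb was the farthest of the 10 on its side. Just beyond it, the transcript 2900052L18Rik had log2 differences of 0.13 in pro-B and -0.10 in pre-B cells. On the other side Csnk1d at 366.1 kb was the farthest, and beyond it Cd7, a T and NK cell surface protein, was at 141 and 781 normalized counts in Sirt7-/- and at 173 and 201 in WT pro-B cells. In pre-B cells Cd7 was at 596 in the library of the second Sirt7-/- mouse and between 0 and 3.28 in the other 3, which is the mouse whose libraries also had the most NK cell markers.

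Pax5 forms put into cells with the same genotype at Sirt7 were compared next. The contrasts with EV of the same genotype did not choose the genes except through the shared EV libraries. The WT libraries with EV, set beside them in this paragraph, took part in that choice, so that those differences are a description only. In Sirt7-/- cells with Pax5WT or Pax5K198R, Pcyt2 was between 308 and 464 normalized counts, while it was at 2839 and 3378 in WT cells with EV. P4hb was between 14917 and 17550 and Arhgdia between 34462 and 41920 in these 4 libraries, above the WT cells given the empty vector at up to 9572 and 19548. Mcrip1 was between 2746 and 3326 in them, above 1187 and 1324 in WT cells with EV.

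With limma and Benjamini-Hochberg adjustment, 0 of the 10 genes changed with Pax5WT in Sirt7-/- cells, against 0.0366% of all genes tested, with 2 at an unadjusted p under 0.05, against 9.91%. With Pax5K198R, 0 of the 10 changed, against 4.83%, with 3 at an unadjusted p under 0.05, against 18.4%. With the replicate number as a block, 0 of the 10 changed with Pax5WT, against 1.96% of all genes, and 1 (Mafg) with Pax5K198R, against 11.6%. For Pcyt2 the log2 fold change against EV was -0.37 (95% interval from limma, -0.90 to 0.15) with Pax5WT and -0.51 (-1.03 to 0.02) with Pax5K198R, and the adjusted p was 0.67 and 0.29. With the block the SE was 0.17 for each, and the limma adjusted p was 0.31 and 0.094. For P4hb the log2 fold change without the block was -0.05 (-0.41 to 0.31) and 0.05 (-0.31 to 0.41). For Arhgdia it was 0.01 (-0.25 to 0.27) and 0.18 (-0.08 to 0.44). Fasn and Rfng had the largest log2 fold changes of the 10 with Pax5WT in the downward and the upward direction. Fasn was at 7490 and 8213 normalized counts with Pax5WT and at 9684 and 8500 with Pax5K198R, against 12583 and 10044 with EV, with log2 fold changes of -0.52 (-0.83 to -0.21; limma adjusted p = 0.25) and -0.31 (-0.62 to 0.00018; adjusted p = 0.27). Rfng was at 877 and 926 and at 901 and 905, against 725 and 669 with EV, with log2 fold changes of 0.37 (0.099 to 0.64; limma adjusted p = 0.34) and 0.37 (0.10 to 0.65; adjusted p = 0.13). For both genes the libraries with either form did not overlap those with EV, and with the block the adjusted p was between 0.063 and 0.17. Mafg had the smallest adjusted p with Pax5K198R, 0.10, at 1903 and 1792 normalized counts against 1476 and 1237 with EV; its log2 fold change was 0.45 ± 0.13 (SE), and with the block its limma adjusted p was 0.031. Both Pax5 forms were compared with the same EV libraries.

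In Pax5-/- cells, where Sirt7 was at 1645 to 2382 normalized counts, Pcyt2 was between 3160 and 3745 in all 8 libraries. P4hb was between 10128 and 15011, Arhgdia between 12950 and 15208 and Mcrip1 between 1174 and 1372. The tables were normalized separately, so that these levels were not tested against those of the other cells. Of the 10 genes, 0 changed with Pax5WT, Pax5K198Q or Pax5K198R against EV with limma and Benjamini-Hochberg adjustment, against 3.25%, 0.922% and 9.92% of all genes tested. At an unadjusted p under 0.05 there were 1, 2 and 2 of the 10, against 14.4%, 7.86% and 22.9%. With the replicate number as a block 1 of the 10 (P4hb) changed with Pax5WT, 0 with Pax5K198Q and 2 (P4hb and Bahcc1) with Pax5K198R, against 10.1%, 2.72% and 21.2% of all genes. P4hb was at 13503 and 15011 normalized counts with EV, at 11000 and 12800 with Pax5WT, at 11238 and 13651 with Pax5K198Q and at 10128 and 11720 with Pax5K198R. The libraries with Pax5WT and those with Pax5K198R were below both EV libraries and overlapped each other, and those with Pax5K198Q overlapped EV. The log2 fold changes of P4hb with Pax5WT and Pax5K198R were -0.26 and -0.39, with limma adjusted p of 0.46 and 0.13 without the block and of 0.030 and 0.0031 with it. The smallest adjusted p without the block was 0.065, for Bahcc1 with Pax5K198R at 2524 and 2835 normalized counts against 3590 and 3709 with EV (log2 fold change -0.45 ± 0.12, SE), and with the block it was 0.020. All 3 comparisons use the same EV libraries.

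Next, pre-B cells were compared with pro-B cells. The choice of genes did not use this contrast, but it used the same libraries. In WT cells 5 of the 10 genes changed at an adjusted p under 0.05 (limma, Benjamini-Hochberg), 1 higher and 4 lower in pre-B cells, against 40.2% of all genes tested, 18.1% higher and 22.0% lower. In Sirt7-/- cells 3 of the 10 changed, all lower, against 35.7% of all genes tested, 16.5% higher and 19.2% lower. The gene that rose was Csnk1d in WT cells, and those that fell were Bahcc1, Pycr1 and Fasn in both genotypes and P4hb in WT cells.

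Bahcc1 fell from 1649 and 1307 to 157 and 244 normalized counts in WT cells, and from 2321 and 1978 to 303 and 601 in Sirt7-/- cells. Its log2 fold changes were -2.90 ± 0.35 (SE; limma adjusted p = 0.0010) and -2.33 ± 0.35 (adjusted p = 0.0033). Pycr1 fell from 351 and 346 to 46.0 and 82.0 in WT cells and from 314 and 251 to 21.3 and 23.2 in Sirt7-/- cells, by -2.48 ± 0.32 (limma adjusted p = 0.0013) and -3.60 ± 0.32 (adjusted p = 0.00056) on the log2 scale. Fasn fell from 8913 and 9234 to 3353 and 3732 in WT and from 9646 and 10858 to 4368 and 5611 in Sirt7-/- cells, by -1.36 ± 0.14 (limma adjusted p = 0.00053) and -1.05 ± 0.14 (adjusted p = 0.0019). For these 3 genes all pre-B libraries were below all pro-B libraries in each genotype.

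P4hb fell in WT cells, from 8271 and 9014 to 5090 and 5841 normalized counts. Its log2 fold change was -0.66 ± 0.21 (SE), with an adjusted p of 0.045 in limma that was lost in 8 of 14 alternatives. With the replicate number as a block, which pairs the libraries of a mouse, the limma adjusted p in WT cells was 0.0025. In Sirt7-/- cells the log2 fold change of P4hb was -0.61 ± 0.21 with a limma adjusted p of 0.065. The adjusted p passed the threshold in 4 of 14 alternatives, the replicate number as a block and DESeq2 among them. Csnk1d rose in WT cells by 0.34 ± 0.08 (limma adjusted p = 0.015), from 6342 and 6865 to 8604 and 8113, and had a log2 fold change of 0.01 ± 0.08 in Sirt7-/- cells. The call for Csnk1d in WT cells was lost in 3 of 14 alternatives. Whether any gene's stage change differed between the genotypes was not tested.

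Pcyt2, Mafg, Anapc11, Arhgdia and Rfng were not past the threshold between the stages in either genotype with all libraries in limma. Pcyt2 had log2 fold changes of -0.12 (95% interval -0.62 to 0.38) in WT and 0.40 (-0.10 to 0.90) in Sirt7-/- cells, Arhgdia of -0.10 (-0.53 to 0.33) and 0.03 (-0.40 to 0.46), and Mafg of -0.05 (-0.51 to 0.41) and 0.17 (-0.29 to 0.63). Anapc11 had -0.23 (-0.46 to -0.01) in WT cells with a limma adjusted p of 0.093. Rfng had 0.04 (-1.19 to 1.27) in WT and 1.08 (-0.14 to 2.31) in Sirt7-/- cells. Without the second Sirt7-/- pre-B library, the values in Sirt7-/- cells were 2.02 for Rfng (limma adjusted p = 0.00096) and 0.74 for Pcyt2 (adjusted p = 0.0091), both past the threshold, as was Rfng with DESeq2 (1.38, adjusted p = 0.0085). Sirt7 itself rose from pro-B to pre-B cells by 1.05 ± 0.14 (SE; limma adjusted p = 0.0016) in WT cells, and its remaining counts in Sirt7-/- cells rose by 1.36 ± 0.14 (adjusted p = 0.00096). Pcyt2, 7.3 kb away, did not show that rise in the WT libraries, at 2395 and 2440 in pre-B against 2665 and 2582 in pro-B cells.

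The plot of stage changes gives these values for all 10 genes and Sirt7.

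**Figure D3:**
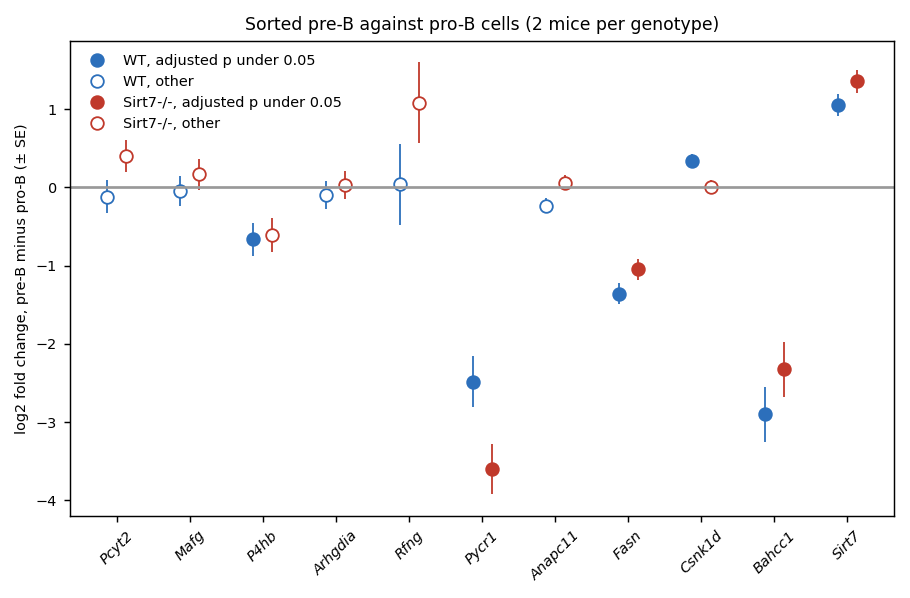
Log2 fold change of sorted pre-B against pro-B cells (vertical axis) for the 10 genes and Sirt7, in WT (blue) and Sirt7-/- (red) mice, 2 per genotype, with standard errors from limma. Filled points have an adjusted p under 0.05. Pycr1, Fasn and Bahcc1 lie below -1 in both genotypes and Sirt7 lies above 1.

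Per kb of merged exons, the levels of the 10 genes in WT pro-B cells ran from 24876 normalized counts for Arhgdia and 3021 for P4hb, through 1418 for Rfng and 1315 for Csnk1d, to 88.5 for Pycr1. Fasn (829), Anapc11 (714), Pcyt2 (604), Mafg (241) and Bahcc1 (133) lay between, in this order, and the libraries of neighbours in the order did not overlap. In Sirt7-/- pro-B cells Pcyt2 stood at 138 per kb, with only Pycr1 lower among the 10, and Rfng at 402. Across the 8 sorted libraries, Pcyt2 was most like Klhl15 (Pearson r = 0.97), Sirt7 (0.93), 1110008L16Rik (0.92), Cyth3 (0.91) and Gzf1 (0.90) among 11929 genes whose mean reached 100 normalized counts. For Mafg the most alike were Lurap1 (0.97), Ino80dos (0.96), Gm9958 (0.95), Rlim (0.95) and Gm13225 (0.94). These correlations are descriptions over 8 libraries that share mice and genotypes. They include the genotype differences that chose Pcyt2 and Mafg, and Sirt7 is the deleted gene, so that they support nothing.

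Genes that work in the same pathways as the 10 were taken from 9 lists with 89 tested genes other than the 10. With limma and Benjamini-Hochberg adjustment, 0 of the 89 changed between Sirt7-/- and WT cells in pro-B, pre-B and cultured cells, with 10, 18 and 6 at an unadjusted p under 0.05. That is 11.2%, 20.2% and 6.74% of the 89, beside 5.94%, 13.6% and 9.68% of all genes tested. In sorted cells edgeR gave 0 and 0 of the 89, and DESeq2 gave 2 and 6 (2.25% and 6.74%, beside 0.697% and 4.08% of all genes). With the replicate number as a block there were 0 in pro-B, 0 in pre-B and 2 in cultured cells (2.25%, beside 2.11% of all genes). The median log2 difference of a list ran from -0.20 to 0.27 in pro-B, from -0.11 to 0.31 in pre-B and from -0.07 to 0.10 in cultured cells, beside medians of 0.00, 0.02 and -0.01 over all genes tested.

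Beside P4hb, 9 of 9 other genes of protein folding in the endoplasmic reticulum were above 0 in pro-B cells, with a median log2 difference of 0.22, and 8 of 9 in pre-B (0.13) and in cultured cells (0.10). Over all genes tested, 8793 of 17649 were above 0 in pro-B, 9145 of 17649 in pre-B and 6504 of 13651 in cultured cells. Calr, the chaperone calreticulin, was at 39752 and 42138 normalized counts in Sirt7-/- and at 29035 and 32159 in WT pro-B cells. Hspa5, also in the list, was at 10843 and 11844 in Sirt7-/- and at 5489 and 12414 in WT pro-B cells, which overlapped. Beside Fasn, 13 of 15 genes of fatty acid and sterol synthesis were above 0 in pro-B cells (median 0.27), 11 of 15 in pre-B cells (0.25) and 9 of 16 in cultured cells (0.06). Of the genes of phosphatidylethanolamine and phosphatidylcholine synthesis beside Pcyt2, 7 of 11, 6 of 11 and 4 of 10 were above 0. Pcyt1b, which makes CDP-choline, was at 265 and 268 in Sirt7-/- and at 150 and 129 in WT cultured cells. None of these passed the threshold with limma without the block.

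In the other lists single genes stood out in value. Rac1, a small GTPase bound by Arhgdia, was at 7221 and 7157 normalized counts in Sirt7-/- and at 20783 and 21721 in WT pre-B cells, with a log2 difference of -1.56 ± 0.57 (SE) and a limma adjusted p of 0.30. Rhoh was at 3001 and 3346 against 4991 and 4209 in pro-B cells. Notch4 was at 119 and 89.6 against 28.2 and 26.2 in pre-B cells, and Cdc20, an activator of the anaphase-promoting complex, at 4465 and 5247 against 2729 and 3757. Hmox1, a heme oxygenase of the oxidative stress response, was at 156 and 47.1 against 252 and 190 in pro-B cells. Prodh, the proline dehydrogenase, was at 102 and 35.1 against 11.5 and 6.80 in cultured cells, and Csnk1g1 at 2402 and 1279 against 2765 and 2952 in pro-B cells.

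Between the stages, 15 of the 89 genes of the pathway lists rose (16.9%) and 30 fell (33.7%) from pro-B to pre-B cells in WT, beside 18.1% and 22.0% of all genes tested. In Sirt7-/- cells 16 rose (18.0%) and 26 fell (29.2%), beside 16.5% and 19.2% (limma, adjusted p under 0.05). Of the 15 genes of fatty acid and sterol synthesis beside Fasn, 8 fell in WT cells, among them Acaca, Elovl6 and Sqle, and 9 in Sirt7-/- cells, while Scd1 rose in both. Of 9 folding genes beside P4hb, 5 fell in WT cells and Ero1b rose, and of 15 genes of the anaphase-promoting complex beside Anapc11, 7 fell and 2 rose. Of 4 proline genes beside Pycr1, Aldh18a1 fell in both genotypes.

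Pax5 peaks lay at the starts of 6 of the 10 genes in at least 1 list. The share of all starts with a peak in at least 1 list was not taken, and shares for each list are given below. A peak within 1 kb of the Pcyt2 start was in all 6 lists, with a fold enrichment over input between 7.15 and 12.1 and a summit 60 to 159 bases into the gene. The 2 values were 10.4 and 12.1 with Pax5WT, 7.50 and 7.15 with Pax5K198Q and 11.1 and 11.3 with Pax5K198R. The 6 peaks shared 321 bases, chr11:120617677-120617997, which held 1 Pax5 core (GCGTGAC, either strand), a motif found in 1.78% of RefSeq promoter windows of 250 bases. These bases lie within the gene and just before it and were taken from Pax5 peaks, while the windows are shorter and lie before starts. The 1.78% is thus not a like background, and a match says only that the letters are there.

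Fasn also had a peak in all 6 lists (fold enrichment 4.09 to 10.3) and Anapc11 in 5 (3.42 to 7.74). Rfng had a peak in the 4 lists of Pax5WT and Pax5K198R (6.41 to 10.1) and in neither list of Pax5K198Q. P4hb had one in 3 lists (5.44 to 9.88), with Pax5WT in list 1 and Pax5K198R in both, and Arhgdia in 2 (4.05 and 5.61), list 1 of Pax5WT and of Pax5K198R. Between the starts of P4hb and Arhgdia, more than 1 kb from each, a peak with its summit between -47.6 and -47.5 kb from the Sirt7 start (minus for lower coordinates) was in all 6 lists. Its fold enrichment was 8.07 and 8.33 with Pax5WT, 5.39 and 5.25 with Pax5K198Q and 6.41 and 12.7 with Pax5K198R. Mafg, Pycr1, Csnk1d and Bahcc1 had none within 1 kb, and Sirt7 had 1 of 3.54-fold enrichment in list 2 of Pax5K198R. The number of the 10 genes with a peak was 6 and 4 with Pax5WT, 3 and 3 with Pax5K198Q and 6 and 4 with Pax5K198R. Of 21911 protein-coding starts, 20.6% and 23.9%, 8.73% and 8.79%, and 25.3% and 26.4% had one in the same lists.

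Within 0.5 Mb of Sirt7 there were 21 and 20 peaks with Pax5WT, 8 and 7 with Pax5K198Q and 27 and 24 with Pax5K198R. Of those of list 1, 16, 5 and 18 overlapped a peak of list 2 by at least 1 base. The lists with Pax5K198Q were shorter throughout, with 3750 and 3957 peaks against 10646 and 11830 with Pax5WT and 12158 and 13997 with Pax5K198R. The window held 0.197% and 0.169% of the peaks with Pax5WT, 0.213% and 0.177% of those with Pax5K198Q and 0.222% and 0.171% of those with Pax5K198R. The lists themselves give no numbers of reads, but the study states them, with like numbers for all ChIP libraries. No Sirt7-/- cells were among the ChIP samples.

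The plot of peaks by distance places them along the region.

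**Figure D4:**
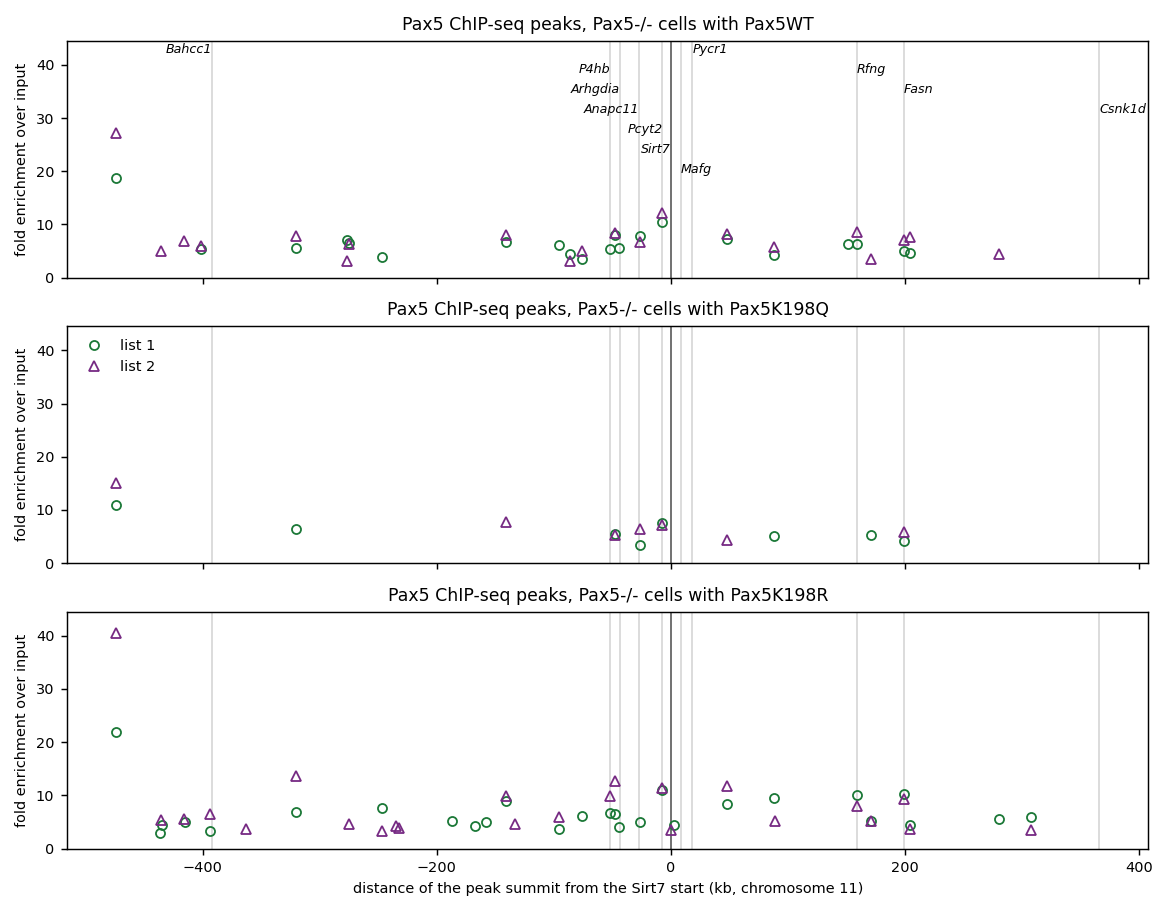
Fold enrichment over input of Pax5 ChIP–seq peaks (vertical axis) by distance of the summit from the Sirt7 start in kb (horizontal axis), in Pax5-/- cells with Pax5WT, Pax5K198Q or Pax5K198R; circles are list 1 and triangles list 2 of each form. Grey lines mark the starts of the 10 genes and the dark line that of Sirt7. The peak at Pcyt2 is in all 6 lists, between 7.15 and 12.1.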

How the data were processed

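RNA was measured in 24 libraries, and Pax5 binding in 6 peak lists. Reads were assigned to mm10 transcripts by the authors with Salmon (GC bias correction), imported with Tximeta, scaled by the size factors of DESeq2 and deposited as a signal per gene, the normalized count. The authors called peaks with MACS2 and deposited the fold enrichment over input, a ratio, and −log10 q-values. Sorted values were turned back into whole reads (100% whole within 0.01 read).

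Genes that reached 10 normalized counts in 2 or more libraries were tested with limma 3.58.1 (R 4.3.3) on log2(value + 1), a scale that understates changes of low genes, with a variance trend, the 4 groups of a table in 1 fit and Benjamini-Hochberg adjustment at 0.05. An exact test of 2 against 2 libraries cannot go below p = 0.33. Replicate libraries were made on separate days according to the study's methods, which do not say whether equal numbers share a day. In both cultured tables the deviations of same-numbered libraries correlated across genes in every pair of groups (0.156 to 0.428 and 0.264 to 0.383), so that these numbers were taken to pair the libraries, and values with the replicate block are given where they change a call. Between the genotypes of sorted cells the correlation was 0.0554 in pro-B and 0.0408 in pre-B cells. Alternatives included edgeR 4.0.16 and DESeq2 1.42.0 on whole reads and the replicate number as a block. Same-numbered sorted pro-B and pre-B libraries came from the same mouse, and their deviations correlated at 0.156 (Sirt7-/-) and 0.0798 (WT) across genes. Positions are GENCODE M21, and 8 of the 10 genes matched the RefSeq promoters. The fit was tested on simulated data, but the outcome is not given here and no statement rests on it. The members and lists were chosen with earlier results of these data known. The genes named were the 10, the nearest 3 tested genes per side of Sirt7, genes within 0.5 Mb past the threshold between genotypes, the 5 genes most like the nearest gene on each side, and the called genes of a pathway list or its 2 with the largest difference. Gps1, Cd7, Gm3807, Gm11772, Pde6g, Slc16a3 and 2900052L18Rik were named outside this rule, after their values were seen. Some genes that this rule gives and 1 marker of the sort are not reported here.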

Additional observations from a re-analysis of the deposited data

Results flagged for a closer look

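For 3 of the 10 genes, effects under the same contrast went in opposite directions in different cells, with both libraries of each group on opposite sides. The differences between the effects were not tested. Csnk1d, a casein kinase, had a log2 difference between Sirt7-/- and WT cells of 0.2019 in pro-B and -0.1282 in pre-B cells. Bahcc1 had a log2 fold change with Pax5WT against EV of 0.2062 in Sirt7-/- and -0.2475 in Pax5-/- cells, and with Pax5K198R of 0.3908 and -0.448. Anapc11 had a log2 fold change with Pax5K198R of 0.3161 in Sirt7-/- and -0.2748 in Pax5-/- cells.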

How the results depend on the processing

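The log2 differences of Pcyt2, P4hb and Arhgdia between Sirt7-/- and WT cells kept their direction in every alternative run. Counts of genes past the threshold depended on the setting. Between Sirt7-/- and WT pro-B cells (11 genes) there were 0 with only the 2 groups compared and 123 with DESeq2. In pre-B cells (15) there were 25 and 5 with pseudocounts of 0.5 and 10, 0 with 2 groups, 44 without a variance trend, 7 with the replicate block, 5 with edgeR and 720 with DESeq2. In cultured cells (76) there were 44 without a filter, 50 with a filter of 100 normalized counts, 0 with 2 groups and 288 with the block.

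With Pax5WT in Sirt7-/- cells (5) there were 12 with a pseudocount of 10, 3 with the filter of 100, 0 with 2 groups, 9 without a trend and 268 with the block. With Pax5K198R there (659) there were 423 without a filter, 370 without a trend and 1588 with the block. In Pax5-/- cells, counts without a filter, without a trend and with the block were 260, 274 and 1343 for Pax5WT (434) and 73, 81 and 363 for Pax5K198Q (123). For Pax5K198R (1324) there were 673 with 2 groups and 2834 with the block. Beyond the calls given above with the block (Pcyt2 between genotypes in pro-B cells, P4hb between stages in Sirt7-/- cells, and Mafg, P4hb and Bahcc1 with Pax5 forms), it changed no call of the 10 genes.

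Leaving out 1 library gave 0 to 15 genes in pro-B, 14 to 177 in pre-B and 3 to 60 in cultured cells. It gave 4698 to 5244 and 3705 to 5836 between stages in WT and Sirt7-/- cells, 1 to 5 and 63 to 228 for Pax5WT and Pax5K198R in Sirt7-/- cells, and 89 to 166, 31 to 67 and 561 to 1484 for Pax5WT, Pax5K198Q and Pax5K198R in Pax5-/- cells. With any 1 of the 4 libraries left out, Pcyt2 was not past the threshold in pro-B cells.

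The median log2 difference within 0.5 Mb was 0.104, 0.208 and 0.0205 in pro-B, pre-B and cultured cells. It was 0.0589, 0.177 and 0.00827 within 0.25 Mb. In pro-B cells it was 0.0691 within 1 Mb, and over protein-coding genes it was 0.0837 in pro-B and 0.140 in pre-B cells. Without 1 library it ran from 0.0369 to 0.130, from 0.134 to 0.228 and from 0.0112 to 0.0551. Of the 10 genes, 3 had a Pax5K198Q peak within 1 kb in each list, beside 8.73% and 8.79% of protein-coding starts. At −log10 q of at least 5 it was 1 in list 1, beside 6.79% of starts. Within 5 kb it was 5 in each list, beside 10.3% and 10.6%.

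Small effects turned sign when 1 library was left out. Between stages in WT cells these were Mafg (-0.14 to 0.041) and Rfng (-0.12 to 0.19), and in Sirt7-/- cells Mafg (-0.053 to 0.39), Arhgdia (-0.20 to 0.27), Anapc11 (-0.0098 to 0.13) and Csnk1d (-0.0197 to 0.0405). In Sirt7-/- cells with Pax5WT they were P4hb (-0.15 to 0.0526) and Arhgdia (-0.0543 to 0.0719), and with Pax5K198R P4hb (-0.0531 to 0.15). The causes were not tested. There were 2 libraries per group, which limits the precision of every value.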
